A study of Homo sapiens with 16 samples.

Results

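The 35 genes described here encode proteins that carry out glycolysis or belong to the transcriptional response to low oxygen. They were chosen as named genes and found by their NCBI gene number, 1 row each, among 27434 rows of each gene table. The study perturbed the RNA-binding protein SAM68 (gene KHDRBS1) and the long noncoding RNA NORAD and sequenced poly(A) RNA from 16 libraries, 2 in each of 8 groups. U2OS is a human osteosarcoma line and HCT116 a human colorectal carcinoma line. In wild-type U2OS the groups were a control siRNA pool, siRNAs against SAM68, an empty control plasmid, and a plasmid carrying the mouse SAM68 gene with an HA tag. In HCT116 the groups were a control siRNA pool or an siRNA pool against NORAD, each in wild-type cells and in SAM68 KO (knockout) cells. All cells were transfected with Lipofectamine 3000, with siRNA at 50 nM or plasmid at 100 ng per 20000 cells, and harvested after 48 h. No group was labelled as kept at low oxygen. The labels do not say whether the knockout line is a single clone. They are also silent on whether replicate libraries were grown as separate cultures, so each p-value reflects the scatter of these libraries alone, which may be technical.

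Cells sense oxygen through prolyl hydroxylases of the EGLN family, which use oxygen to mark the alpha subunits of the hypoxia-inducible factors (HIF) for capture by the VHL ubiquitin ligase. When oxygen is scarce the alpha subunit persists, pairs with ARNT and binds hypoxia response elements, whose core reads ACGTG or GCGTG, near its target genes. The targets raise glucose uptake and glycolysis, turn pyruvate away from mitochondria, promote vessel growth, and include EGLN genes that feed back on HIF. Many tumour cell lines also run glycolysis at a high rate in ordinary oxygen.

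The RefSeq promoter table (GRCh38.p14, another build than the hg19 of the gene tables) held 31 of the 35 genes; BNIP3L, NDRG1, SLC2A3 and VEGFA were not used for sequence. In the 250 bases before a start site, ACGTG or GCGTG on either strand (CACGT or CACGC on the printed strand, with CACGTG counted on both strands) occurred for 26 of the 31 genes, or 83.9%, against 47.4% of all 27305 genes in the table. Counted by window, 34 of 50 member windows (68.0%) held a core, against 43.2% of all 35116 windows. ACGTG alone was in 46.0% of member windows and 18.5% of all windows. These are letter matches and not measured binding sites. The sequences below show the upstream windows of the 3 genes whose libraries differed most within a knockout group among those with several cores, and of MXI1 and SLC2A1, the 2 members called by edgeR between genotypes. They run 5′ to 3′ toward the start site on the gene's strand, with the cores in capitals. ANKRD37 lies on the plus strand at chr4:185396591-185396840, ALDOC on the minus strand at chr17:28576896-28577145, BNIP3 on the minus strand at chr10:131981924-131982173, MXI1 (1 of its 3 windows) on the plus strand at chr10:110209981-110210230, and SLC2A1 on the minus strand at chr1:42958869-42959118.
ANKRD37: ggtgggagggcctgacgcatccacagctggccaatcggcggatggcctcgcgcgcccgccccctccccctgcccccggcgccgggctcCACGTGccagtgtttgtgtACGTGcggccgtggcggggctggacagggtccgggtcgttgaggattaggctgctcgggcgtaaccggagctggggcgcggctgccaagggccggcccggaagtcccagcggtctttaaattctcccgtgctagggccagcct
ALDOC: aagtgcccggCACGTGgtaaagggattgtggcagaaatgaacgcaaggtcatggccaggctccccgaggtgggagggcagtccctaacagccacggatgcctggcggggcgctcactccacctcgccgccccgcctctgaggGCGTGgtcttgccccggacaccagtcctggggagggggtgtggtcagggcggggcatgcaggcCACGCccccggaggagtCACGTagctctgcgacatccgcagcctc
BNIP3: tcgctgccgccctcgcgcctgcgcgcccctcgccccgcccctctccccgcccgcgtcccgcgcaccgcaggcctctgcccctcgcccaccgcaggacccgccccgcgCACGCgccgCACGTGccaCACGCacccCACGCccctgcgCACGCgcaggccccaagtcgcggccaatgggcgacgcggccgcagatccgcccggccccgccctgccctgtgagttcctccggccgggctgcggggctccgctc
MXI1: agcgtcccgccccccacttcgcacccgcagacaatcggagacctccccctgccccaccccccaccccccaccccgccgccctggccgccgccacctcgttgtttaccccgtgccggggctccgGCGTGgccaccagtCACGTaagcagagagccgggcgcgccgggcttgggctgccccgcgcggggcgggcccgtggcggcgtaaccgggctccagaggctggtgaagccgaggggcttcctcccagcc
SLC2A1: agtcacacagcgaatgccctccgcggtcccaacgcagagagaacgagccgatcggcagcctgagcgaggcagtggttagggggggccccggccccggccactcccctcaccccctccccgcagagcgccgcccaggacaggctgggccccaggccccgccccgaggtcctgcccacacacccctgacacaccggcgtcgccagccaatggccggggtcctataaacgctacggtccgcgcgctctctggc

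BNIP3 had 6 cores in this window, ALDOC 5, ANKRD37 3 and this MXI1 window 2. The SLC2A1 window held 0 of these letters, as did the windows of EGLN3, P4HA2, PGAM1 and PKM. HK2 also had a window with 6 cores and LDHA a window with 5. BNIP3, ALDOC and ANKRD37 were picked for having several cores, so they cannot relate cores to the gap between libraries. In the knockout NORAD pair the gap was log2 1.065, 1.432 and 1.775 for these genes. It was widest for ANGPTL4 (1.799), which had 1 core, and was 0.191 for HK2. A relation of cores to the gap was not tested.

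Library totals were 11349545 to 27387412 expected counts. In all libraries the targeted genes lay on the labelled side of their controls. KHDRBS1 stood at 80.7 and 48.6 CPM under SAM68 siRNA against 244.7 and 248.7 in its controls. CPM are counts scaled to the library total adjusted by a normalization factor (TMM), set for each line apart. With the SAM68 plasmid KHDRBS1 was at 530.6 and 593.3 against 219.9 and 276.9. That plasmid carried the mouse gene and reads were counted on the human build hg19, so how fully its RNA was counted is not known. In HCT116 KHDRBS1 was at 31.6 to 44.5 in knockout against 206.3 to 241.3 in wild type. Its change was called by edgeR in the knockout (log2 -2.57, adjusted p = 8.96e-06) but not in U2OS, neither with SAM68 siRNA (log2 -1.94, adjusted p = 0.185) nor with the plasmid (log2 1.18, adjusted p = 1). NORAD was at 50.2 and 47.4 CPM under its siRNA in wild-type cells and 77.4 and 54.7 in knockout cells, against 224.7 to 251.7 in the 4 HCT116 controls. Colon epithelial markers summed to 4209 to 5419 TPM (transcript abundance scaled for length and library total) in HCT116 and 929.9 to 1300.0 in U2OS. The U2OS sum was mostly KRT8 and KRT18, with medians of 368.2 and 735.2 TPM, and VIL1 had a median of 0 in both lines. The 10 mesenchymal and bone markers summed to 7.0 to 11.67 in HCT116 and 2897 to 4519 in U2OS. Of 9 of them tested between the lines, 8 were higher in U2OS and TWIST1 was lower, at 0 TPM against a median of 1.39 in HCT116. Blood, endothelial and liver markers summed to at most 1.85 TPM in any library. In bulk RNA, a larger share of expressing cells and more RNA per cell cannot be told apart.

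Glycolytic enzyme mRNAs were among the abundant transcripts of both lines. The 15 enzymes together made up 1.80% to 2.21% of all TPM in the 8 U2OS libraries, with a median of 2.03%, and 1.75% to 2.16% in the 8 HCT116 libraries, with a median of 2.01%. GAPDH, which oxidises glyceraldehyde phosphate, gave 0.83% to 1.01% in U2OS and 0.76% to 0.99% in HCT116. The other 20 members together reached 0.04% to 0.06% in U2OS and 0.07% to 0.09% in HCT116. Several enzymes, GAPDH, PGK1 and ENO1 among them, have near-identical processed copies in the genome between which counting may split reads.

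CA9, a cell-surface carbonic anhydrase that helps cells export acid, was close to undetected. Its counts were 0 to 2 in the U2OS libraries and 0 to 10 in the HCT116 libraries, the 10 in a knockout library with NORAD siRNA. It did not pass the filter on low counts in any fit of all libraries. It did enter the fits without that filter and most HCT116 and joint fits with a single library left out. ANGPTL4, a secreted lipase inhibitor, had 0 to 2 counts in every U2OS library and 93 to 356 in every HCT116 library. It was tested in HCT116 and in the joint fit of both lines but not in the U2OS fit. So in the fits of all libraries with this filter, 33 members were tested in U2OS, 34 in HCT116, and 34 between the lines.

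The lines differed in most members under the same control siRNA. In the joint fit of 16 libraries (edgeR quasi-likelihood test, Benjamini-Hochberg adjusted p below 0.05 over 16444 genes) 26 of 34 members differed between U2OS and wild-type HCT116, where 65.4% of all genes did. Of these, 21 were lower in U2OS, against 29.8% of all genes, and 5 were higher, against 35.6% of all genes. The median log2 fold change, U2OS over HCT116, was -0.69 for members and 0.10 for all genes. Under other scalings the all-gene median moved to 0.15 (DESeq2 size factors), 0.19 (no filter) and -0.04 (GC content and length offset), and the members' median stayed between -0.74 and -0.61 over all alternatives, single libraries left out included. The labels do not say whether the lines were handled together, so the line and any difference in handling cannot be told apart.

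Among secreted signals, ADM encodes adrenomedullin, a peptide that widens vessels. It stood at 1.1 and 1.2 TPM in the U2OS control siRNA libraries and at 41.8 and 37.4 TPM in those of wild-type HCT116. The groups lay far apart, and in the fit to counts ADM was 43.7-fold lower in U2OS (log2 -5.45 ± 0.25 SE, edgeR adjusted p = 3.91e-10). Fold and log2 values between the lines come from this fit, and the TPM beside them can give other ratios. ANGPTL4 had 2 and 1 counts in these U2OS libraries against 182 and 93 in HCT116 (edgeR adjusted p = 1.48e-05). VEGFA, the main vessel growth factor, was closer, with 38.1 and 38.4 TPM against 44.0 and 45.1 (log2 -0.63 ± 0.13, edgeR adjusted p = 0.000876).

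The glucose transporters went opposite ways. SLC2A3, the high-affinity transporter GLUT3, was at 23.6 and 30.6 TPM in U2OS and 1.47 and 1.24 TPM in HCT116. In the fit to counts SLC2A3 was 15.3-fold higher in U2OS (log2 3.94 ± 0.30, edgeR adjusted p = 5.29e-08). SLC2A1, the basal transporter GLUT1, was at 51.3 and 57.8 TPM in U2OS and 58.5 and 55.6 TPM in HCT116, ranges that overlapped on this scale; on counts it was lower by log2 -0.43 ± 0.17 (edgeR adjusted p = 0.0379). As a share of the TPM of both transporters, SLC2A1 held 61.2% to 80.2% in U2OS and 96.9% to 99.0% in HCT116.

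Isoenzymes of the same step also divided differently. Hexokinases trap glucose in the cell, and HK1 was higher in U2OS at 132 and 147 TPM against 47.8 and 50.1 (log2 1.15 ± 0.14, edgeR adjusted p = 5.01e-06). HK2, the inducible hexokinase, was lower at 14.3 and 11.8 TPM against 33.4 and 36.8 (log2 -1.79 ± 0.16, edgeR adjusted p = 3.35e-07). HK1 therefore held 86.3% to 92.6% of the summed hexokinase TPM of this pair in U2OS and 56.8% to 62.0% in HCT116, with no overlap.

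Phosphofructokinase commits sugar to glycolysis. Its platelet-type subunit PFKP was at 54.7 and 53.0 TPM in U2OS against 218 and 207 in HCT116. In the fit to counts PFKP was 5.46-fold lower in U2OS (log2 -2.45 ± 0.14, edgeR adjusted p = 3.38e-09). PFKL, the liver-type subunit, was also lower (log2 -1.01 ± 0.24, edgeR adjusted p = 0.00207), and made up 29.3% to 52.3% of the TPM of both subunits in U2OS and 19.4% to 23.3% in HCT116. ALDOC, an aldolase known from brain, was at 8.66 and 10.5 TPM in U2OS against 38.9 and 35.5 (log2 -2.31 ± 0.44, edgeR adjusted p = 0.000353). In either line ALDOA was the bulk of aldolase TPM, 98.5% to 99.5% in U2OS and 94.1% to 97.9% in HCT116, and ENO1 the bulk of enolase, 97.8% to 98.6% and 98.5% to 98.9%. Of the 15 enzymes 9 were called lower in U2OS and 1, HK1, higher. GAPDH (adjusted p = 0.103), PGK1 (0.584), ENO2 (0.756), PKM (0.0613) and LDHA (0.238) were not called by edgeR. PKM was called with DESeq2, RLE factors, the GC content and length offset or no filter, and without U2OS library 1, and PGK1 with that offset.

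PFKFB3 and PFKFB4, which set the level of the sugar bisphosphate that drives phosphofructokinase, were both lower in U2OS, with log2 fold changes of -1.18 ± 0.17 and -1.11 ± 0.32. Among mitochondrial genes, PDK1, the kinase that shuts pyruvate dehydrogenase, was lower (log2 -0.80 ± 0.22, edgeR adjusted p = 0.00525). BNIP3 and BNIP3L are paired outer-membrane receptors for mitochondrial removal, and they moved apart. BNIP3L was at 63.2 and 60.2 TPM in U2OS against 15.3 and 13.1 in HCT116 (log2 1.75 ± 0.25, edgeR adjusted p = 2.47e-05), while BNIP3 was lower (log2 -1.37 ± 0.31, edgeR adjusted p = 0.00154). BNIP3 held 30.2% to 66.8% of their joint TPM in U2OS and 75.8% to 82.8% in HCT116.

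The collagen prolyl hydroxylase subunits use oxygen to shape collagen in the endoplasmic reticulum. P4HA2 was at 75.5 and 94.2 TPM in U2OS against 24.0 and 28.5 in HCT116 (log2 1.29 ± 0.23, edgeR adjusted p = 0.000192), whereas P4HA1, at 55.3 and 54.6 against 31.5 and 31.3 TPM, did not pass on counts (log2 0.44 ± 0.22, edgeR adjusted p = 0.0905). The HIF hydroxylases EGLN1 and EGLN3 were lower in U2OS by log2 -0.50 ± 0.17 and -1.05 ± 0.26, and the histone demethylase KDM3A was not called (edgeR adjusted p = 0.226). DDIT4, an mTOR inhibitor induced by stress, was at 32.3 and 37.4 TPM against 264 and 214 (log2 -3.14 ± 0.24, edgeR adjusted p = 4.94e-08). ANKRD37, a small ankyrin repeat protein, was at 2.69 and 2.92 TPM against 15.1 and 13.2 (log2 -2.67 ± 0.53, edgeR adjusted p = 0.00049). MXI1, a partner of MAX that opposes MYC, was slightly higher in U2OS (log2 0.37 ± 0.14, edgeR adjusted p = 0.0278), a call lost without wild-type HCT116 library 2 or without either U2OS library (adjusted p up to 0.206). It was also lost without the filter on low counts (edgeR adjusted p = 0.115) and with the GC content and length offset, where the value was log2 0.06 (0.708 by edgeR, and 0.699 with the replicate number as a block). NDRG1, a stress-induced growth inhibitor, was not called (edgeR adjusted p = 0.117). KDM3A was called with the GC content and length offset, and NDRG1 with that offset and the replicate block together. The call of SLC2A1 was lost with DESeq2 or RLE factors. The calls of SLC2A1 and EGLN1 were lost whenever a library of either group was left out, that of PFKFB4 without the library numbered 1 of either line, and that of PDK1 without U2OS library 2.

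**Figure D1:**
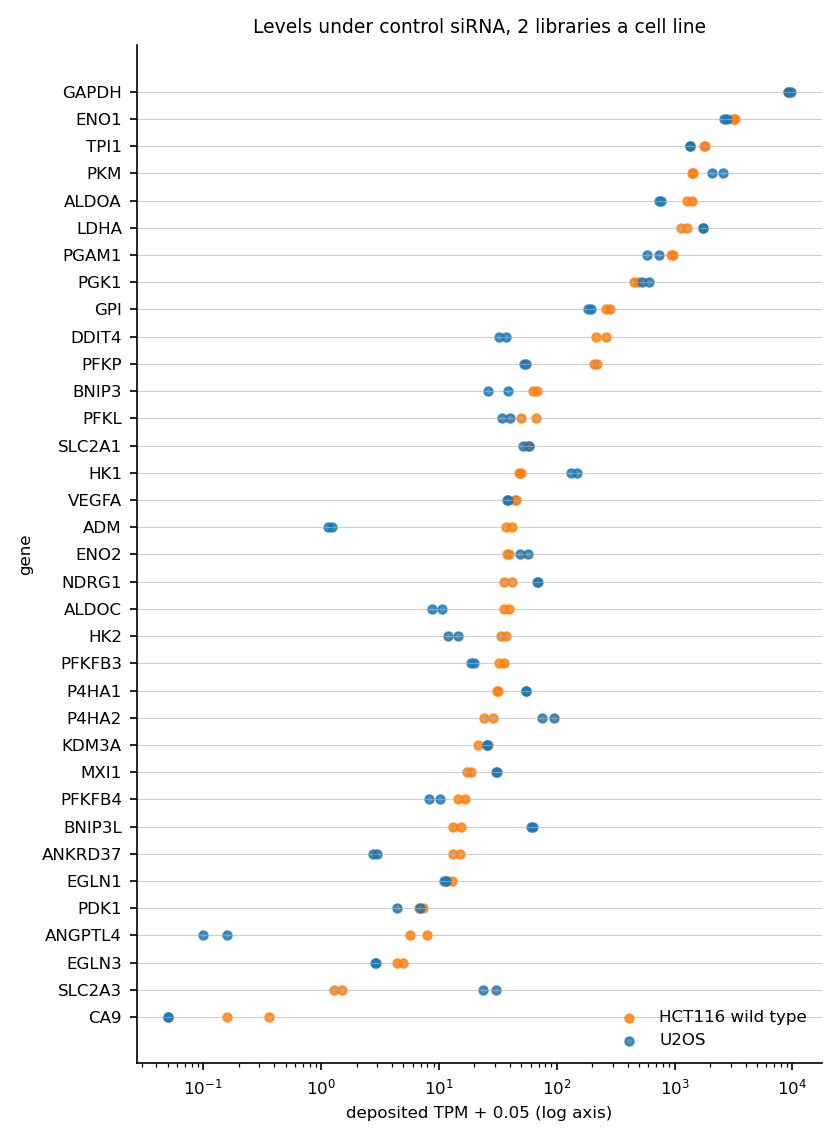
Deposited TPM plus 0.05 on a log axis for the 35 members, ordered by their mean in wild-type HCT116, with 1 point per control siRNA library. GAPDH leads in both lines at 9128 to 9682 TPM, while ADM, ANGPTL4, DDIT4 and SLC2A3 lie farthest apart between the lines.

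Other genes of the pathway, from lists chosen with earlier results known, were also divided between the lines. Their counts stand against the 35.6% of all genes called higher and 29.8% called lower. Of 13 HIF pathway regulators tested, 4 were higher and 6 lower in U2OS, among them EPAS1, a HIF alpha subunit, at log2 -1.77 ± 0.24 (edgeR adjusted p = 1.49e-05). Of 31 other reported hypoxia targets, 13 were higher and 13 lower, with a median of -0.01. LOX, a collagen crosslinking oxidase, was higher by log2 13.60 and STC2, a secreted glycoprotein, lower by log2 -8.14. SLC16A3, the lactate exporter MCT4, was lower by log2 -7.72 ± 0.30 (edgeR adjusted p = 1.23e-10), 1 of 5 higher and 6 lower calls among 14 other glycolysis genes. The pentose phosphate list had 1 higher and 4 lower of 7, and the pyruvate and citric acid cycle list 3 higher and 10 lower of 20.

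Before the HCT116 comparisons, a difference between libraries of the same group bears on them. In SAM68 knockout cells with control siRNA, 30 of 34 members were higher in the library numbered 1 than in the library numbered 2, with a median log2 difference of 0.25. With NORAD siRNA 32 of 34 were higher in number 1, all 15 enzymes among them, with a median of 0.36. Over all genes tested, 49.7% and 48.1% were higher in number 1. The wild-type pairs were closer, with 26 of 34 members higher in number 1 under control siRNA (median 0.15) and 22 of 34 under NORAD siRNA (median 0.04).

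The widest gaps were in classical hypoxia targets. ANKRD37 was at 8.47 and 4.27 CPM in the knockout control libraries 1 and 2 and at 17.4 and 4.74 CPM in the knockout NORAD libraries. ALDOC was at 47.1 and 20.2 CPM and then at 65.3 and 23.9 CPM. ANGPTL4 was at 13.3 and 5.83 CPM and then at 19.8 and 5.33 CPM. In each case the library numbered 1 was well over the library numbered 2, and the siRNA groups overlapped. BNIP3 was at 67.5 and 41.9 CPM with control siRNA and 99.3 and 47.2 CPM with NORAD siRNA, and NDRG1 at 93.6 and 65.6 and then 116 and 57.0 CPM. PFKFB4 was at 39.3 and 20.6 and then 39.9 and 18.9 CPM. Not every target took part: VEGFA was at 78.3 and 69.5 CPM and then 68.8 and 71.6, and PFKFB3 at 83.4 and 83.6 and then 76.5 and 81.0. Across genes, the difference between libraries 1 and 2 ranked with transcript GC content at a Spearman rho of 0.595 in the knockout control pair and 0.008 in the knockout NORAD pair, where the members' gap was wider. Members had a median transcript GC content of 53.9% and all genes of 49.4%. No cause of the gap was tested, and the results below are given with and without these libraries where they rest on them.

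**Figure D2:**
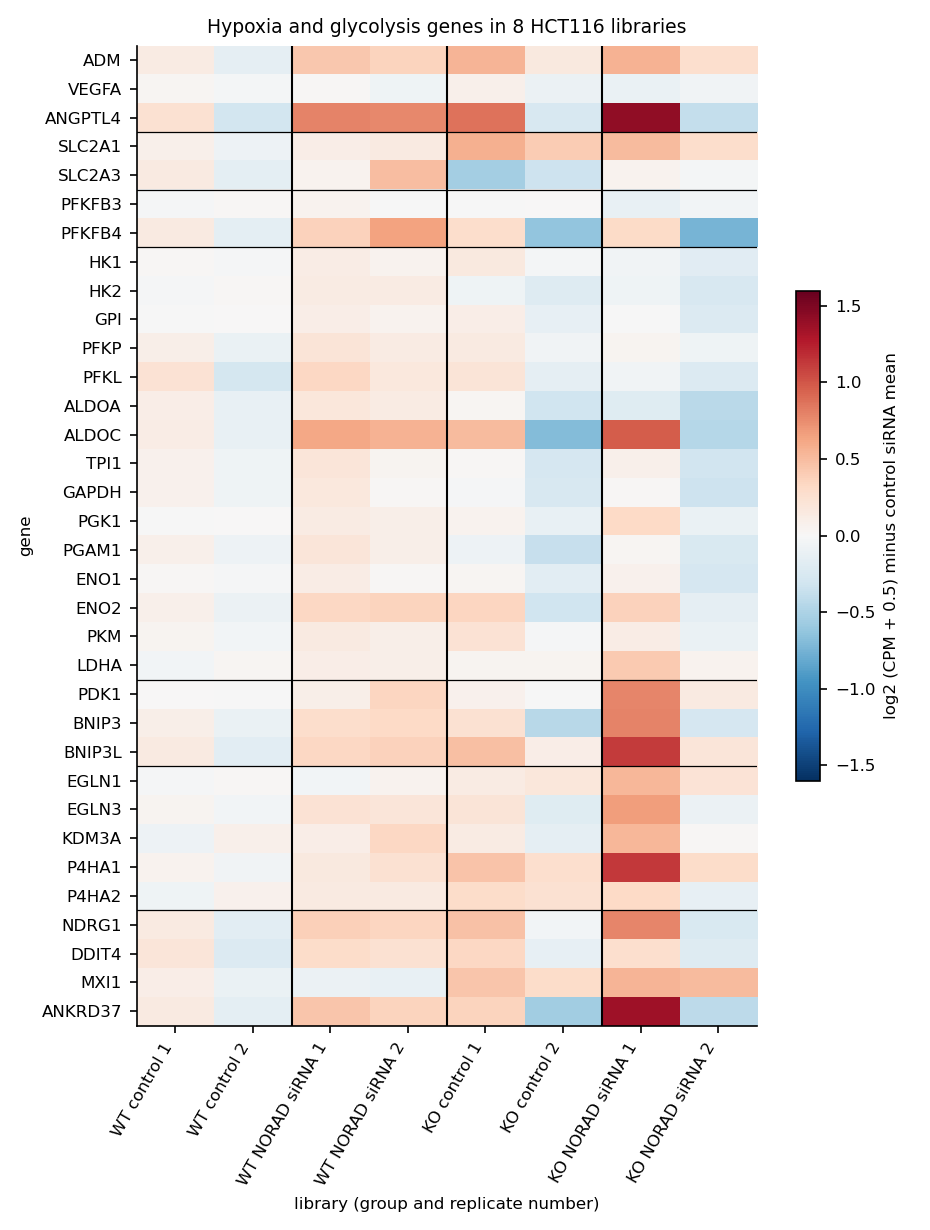
Heat map of 34 members (rows, grouped by role) in the 8 HCT116 libraries (columns), as log2 (CPM + 0.5) minus the log2 value of the mean of the wild-type control siRNA libraries, red for higher. The knockout libraries numbered 1 are redder than those numbered 2 in most rows, and the SLC2A1 and MXI1 rows are red in all 4 knockout libraries.

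SLC2A1 and MXI1 were the members that edgeR called between SAM68 knockout and wild-type HCT116 cells. The comparison averaged both siRNAs, 4 libraries against 4. Loss of SAM68 and any other difference between the knockout and wild-type cells cannot be told apart in it. SLC2A1 was at 178.8 and 159.2 CPM (control siRNA) and 170.8 and 146.2 CPM (NORAD siRNA) in knockout cells, against 127.3 and 113.1 and then 129.1 and 133.4 CPM in wild-type cells. All 4 knockout libraries lay above all 4 wild-type libraries, a 1.30-fold rise (log2 0.38 ± 0.08 SE, edgeR adjusted p = 0.0193). MXI1 was at 46.7 and 42.2 and then 50.3 and 48.9 CPM in knockout, against 36.7 and 31.6 and then 32.0 and 31.4 CPM in wild type. Again the groups did not overlap, with a 1.42-fold rise (log2 0.51 ± 0.08, edgeR adjusted p = 0.00815). These were 2 of 34 members called, both higher, a smaller share than over all genes. Of all 13764 genes 17.6% were called and 11% were called higher.

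Both calls rest on few libraries. Neither held without knockout NORAD library 1 or without wild-type NORAD library 1 (edgeR adjusted p of 0.0505 and 0.0538 for MXI1, 0.0842 and 0.104 for SLC2A1), and SLC2A1 was also lost without wild-type NORAD library 2 (0.0664), while both kept their direction.

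Whether glycolytic enzymes passed the test depended on the fit. Of 15 enzymes 2 had a positive log2 fold change in knockout against wild type and 13 a negative one, with a median of -0.10 and 0 calls by edgeR without a replicate term. With the replicate number as a block, edgeR called 10 of the 34 members, where 38.1% of all genes were called. They were the enzymes ALDOA, GAPDH, HK2, PGAM1 and TPI1, with ADM, EGLN1, MXI1, P4HA1 and SLC2A1. With the GC content and length offset in place of the block, the members called were ADM, MXI1 and SLC2A1, and no enzyme. With the block and that offset together, they were the enzymes HK2, PGAM1, PGK1 and PKM, with ADM, MXI1 and SLC2A1. The share of all genes called in that last fit is not given here. Over all genes, the log2 fold changes of this comparison ranked against GC content at a rho of -0.639. Whether GC content lies behind the enzyme values was not tested. DESeq2 called ALDOA and P4HA1 beside MXI1 and SLC2A1, where it called 19.4% of all genes. Without the filter on low counts ALDOA, GAPDH and PGAM1 were among 8 members called. That fit also called more genes in total, and its share of all genes is not given here. In the edgeR fit without a replicate term, 3 of the 15 enzymes had an unadjusted p under 0.05, against 36.1% of all genes. HK2 was lower in all 4 knockout libraries, at 121.9 to 139.1 CPM against 143.9 to 160.6, and missed the threshold (log2 -0.22 ± 0.07, edgeR adjusted p = 0.0678). ALDOA had log2 -0.30 ± 0.10 with overlapping groups (edgeR adjusted p = 0.0637). Among the other 19 members 13 were positive, with a median of 0.115. P4HA1, at 60.8 to 111 CPM in knockout and 48.7 to 59.8 in wild type, did not overlap and had log2 0.47 ± 0.16 (edgeR adjusted p = 0.0666). EGLN1, the main HIF hydroxylase, at 56.0 to 74.4 against 49.8 to 53.4 CPM, did not overlap either, an order seen in 5 members (4 higher, 1 lower) and in 19.1% of all genes (log2 0.27 ± 0.09, edgeR adjusted p = 0.0629). The median over the 34 members was -0.02, and -0.01 over all genes.

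The count of calls changed with the knockout libraries used. These fits were added after most members were seen to be higher in the knockout libraries numbered 1. Each fit left 1 library per knockout group. The choice itself favours lower member values without number 1 and higher ones without number 2. The calls below, set beside the shares of all genes, are therefore no test of a difference between genotypes. Without both knockout libraries numbered 1, 11 members were called: MXI1 among them, with ALDOA, ALDOC, ANGPTL4, ANKRD37, BNIP3, ENO2, GAPDH, PFKFB4, PGAM1 and TPI1, and the median fell to -0.23. The share of all genes called in that fit was 10.6%. Without both libraries numbered 2, the call was P4HA1, where 1.64% of all genes were called, and the median 0.17. With the knockout libraries numbered 2 as the knockout group, members such as ALDOC at 20.2 and 23.9 CPM lay below all wild-type libraries (30.3 to 51.1). With those numbered 1, at 47.1 and 65.3 CPM, they did not.

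Under control siRNA alone, 2 knockout against 2 wild-type libraries, 0 of 34 members were called by edgeR, with 2 at an unadjusted p under 0.05, where 0.312% of all genes were called. The members' median was 0.03 and that of all genes 0.00, with 20 of 34 positive. SLC2A1 had log2 0.49 ± 0.12 (edgeR adjusted p = 0.182) and MXI1 log2 0.38 ± 0.12 (0.337). SLC2A1 was called with the replicate number as a block, with the GC content and length offset, and without the filter on low counts. ADM, at 49.2 and 37.7 against 36.8 and 30.5 CPM, had log2 0.36 ± 0.16 (edgeR adjusted p = 0.544). SLC2A3 was the low-level transporter here, at 1.95 and 2.35 against 3.45 and 2.72 CPM (log2 -0.52 ± 0.27, edgeR adjusted p = 0.613), and P4HA2 had log2 0.27 ± 0.15 (0.638). For these 5 genes the groups did not overlap. That held for 9 of the 34 members, 7 higher and 2 lower, against 34.6% of all genes. With 2 libraries a side, the smallest two-sided p of an exact permutation test is 0.333.

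Related pathway genes in the knockout comparison over both siRNAs included a few that passed, where 11% of all genes were called higher and 6.62% lower. Of 12 HIF pathway regulators 2 rose: EPAS1 (log2 0.56 ± 0.09, edgeR adjusted p = 0.00773) and CUL2, the scaffold of the VHL ligase (log2 0.42 ± 0.10, 0.0223). Of 28 other reported hypoxia targets 3 rose, near the 11% of all genes, with a list median of 0.03. They were KDM5B, AK4 and ERO1A (log2 0.48, 0.40 and 0.35). HKDC1, a hexokinase-like enzyme, rose by log2 0.71 ± 0.11 (edgeR adjusted p = 0.00788) and TIGAR, a phosphatase that slows glycolysis, by log2 0.52 ± 0.08 (0.00768), among 12 other glycolysis genes. SUCLA2, PDP1 and IDH3A rose among 20 pyruvate and citric acid cycle genes. The pentose phosphate pathway, which draws glucose phosphate away from glycolysis to make NADPH and ribose, had all 7 genes negative, with a median of -0.24. PGLS (log2 -0.91 ± 0.13, edgeR adjusted p = 0.00669), RPE (-0.29) and PGD (-0.24) passed the test. All these calls on related genes are from the edgeR fit without a GC content offset. Over all genes the log2 fold changes of this comparison ranked against GC content at a rho of -0.639. Values of the related genes under other settings are not given here.

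**Figure D3:**
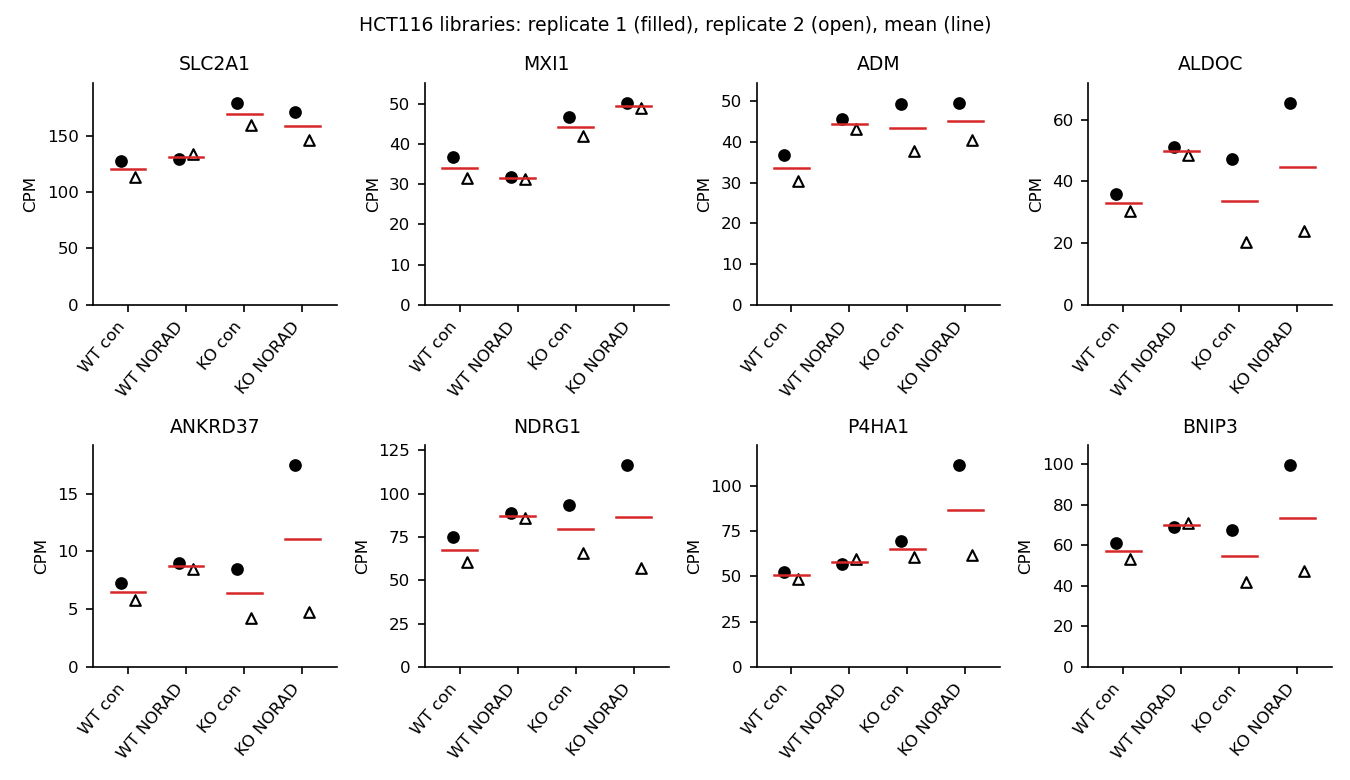
CPM on linear axes from 0 for 8 members in the 4 HCT116 groups (WT wild type, KO SAM68 knockout, con control siRNA), replicate 1 filled, replicate 2 open, mean as a line, n = 2 libraries per group. SLC2A1 and MXI1 are higher in all 4 knockout libraries, while ALDOC, ANKRD37, NDRG1, P4HA1 and BNIP3 have a wide gap between the knockout NORAD libraries.

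NORAD siRNA in wild-type HCT116 gave small positive values across nearly the whole set. The 34 members ranged from log2 -0.11 to 0.81, 32 of them positive, with a median of 0.17 against 0.00 for all genes, of which 50.7% were positive. In 26 of 34 members both NORAD siRNA libraries were above both control libraries, and 13.1% of all genes showed that order. The 2 control libraries themselves differed by a similar amount, with 26 of 34 members higher in number 1 and a median of 0.15. Whether the values under NORAD siRNA exceed such shifts between libraries was not tested. All 15 enzymes were positive, with a median of 0.12, and 17 of the other 19, with a median of 0.23. None of the 34 was called by edgeR (each adjusted p = 0.999), 1 had an unadjusted p under 0.05, DESeq2 also called 0, and 0.00727% of all genes were called. With the offset for GC content and length, 32 of 34 stayed positive with a median of 0.15. Leaving out single libraries gave medians of 0.13 to 0.23. The members were measured in the same 4 libraries and are not independent of each other.

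ADM had the smallest p. It was at 45.6 and 43.1 CPM with NORAD siRNA and 36.8 and 30.5 CPM with control siRNA, above both controls in both libraries (log2 0.40 ± 0.16, edgeR adjusted p = 0.999). ENO2, the neuronal enolase, was at 65.8 and 67.1 against 55.5 and 49.2 CPM (log2 0.34 ± 0.22). PFKP was at 361 and 342 against 334 and 290 CPM (log2 0.17 ± 0.11). For these 3 genes the groups did not overlap, and none passed the test. With single libraries left out, the value of ADM ran from log2 0.27 to 0.54 and that of PFKP from 0.08 to 0.28. ANGPTL4 was at 12.6 and 12.4 against 8.47 and 5.64 CPM (log2 0.81 ± 0.54) and PFKFB4 at 41.6 and 50.7 against 35.4 and 28.9 CPM (log2 0.52 ± 0.35). MXI1, at 32.0 and 31.4 against 36.7 and 31.6 CPM, and VEGFA, at 75.6 and 70.8 against 76.0 and 72.6 CPM, were the 2 with negative values. Of 28 other reported hypoxia targets 23 were positive with a median of 0.10 and 0 calls, while 4 of 12 HIF pathway regulators were positive with a median of -0.07.

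In SAM68 knockout HCT116 the same siRNA gave a mixed picture. Of 34 members 19 were positive, with a median of 0.07 against 0.00 for all genes, and 0 were called by edgeR (adjusted p from 0.438 to 0.976), with 1 at an unadjusted p under 0.05, where 0.00727% of all genes were called. Groups did not overlap for 7 members, 5 higher and 2 lower, a smaller share than the 43.5% of all genes. Enzymes were positive in 6 of 15, with a median of -0.03, and the others in 13 of 19, with a median of 0.23. The sign of the median depended on the library: it was -0.20 without knockout NORAD library 1 and -0.13 without knockout control library 2, but 0.21 without knockout NORAD library 2 and 0.22 without knockout control library 1. With the GC content and length offset 30 of 34 were positive, with a median of 0.12, and the log2 fold changes of all genes ranked against GC content at a rho of -0.694 in this comparison and 0.405 in wild-type cells.

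PDK1 was at 29.3 and 18.7 CPM with NORAD siRNA and 17.8 and 16.9 with control siRNA in knockout cells (log2 0.46 ± 0.20, edgeR adjusted p = 0.438). SLC2A3 was at 3.22 and 3.01 against 1.95 and 2.35 CPM (log2 0.51 ± 0.27, edgeR adjusted p = 0.472). EGLN1 was at 74.4 and 59.4 against 56.0 and 58.2 CPM (log2 0.23 ± 0.12, edgeR adjusted p = 0.482). For these 3 genes the groups did not overlap, and for PDK1 and EGLN1 library 1 was the higher of the NORAD libraries. Without that library PDK1 was at log2 0.10 and EGLN1 at 0.05, and without NORAD library 2 at 0.75 and 0.38. Without both knockout libraries numbered 1 they were at 0.15 and 0.03. P4HA1 was at 111 and 61.8 against 69.6 and 60.8 CPM, with overlap (log2 0.41 ± 0.22, and -0.09 without knockout NORAD library 1). HK1 was lower, at 97.0 and 88.4 against 112 and 98.3 CPM, without overlap (log2 -0.19 ± 0.11, edgeR adjusted p = 0.497, and -0.29 to -0.08 with single libraries left out).

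The difference between the NORAD effects, knockout minus wild type, was tested as an interaction. It asks whether the effect of NORAD siRNA differs between knockout and wild-type cells. The edgeR test called 0 of 34 members and 0 of all 13764 genes (0%), with 0 members and 1048 genes at an unadjusted p under 0.05 and 2 genes called by DESeq2. The median over members was -0.11 and over all genes -0.01, with 12 of 34 positive. Among enzymes 2 of 15 were positive, with a median of -0.19. HK1 had a difference of log2 -0.27 ± 0.15, PFKL -0.43 ± 0.25 and ALDOA -0.33 ± 0.20 (each edgeR adjusted p = 0.642). MXI1 went the other way at log2 0.27 ± 0.17 (edgeR adjusted p = 0.644), and ADM had log2 -0.34 ± 0.23 (0.652). The members' median ran from -0.33 to 0.06 when single libraries were left out, so a difference between genotypes was not detectable at this depth and replication.

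**Figure D4:**
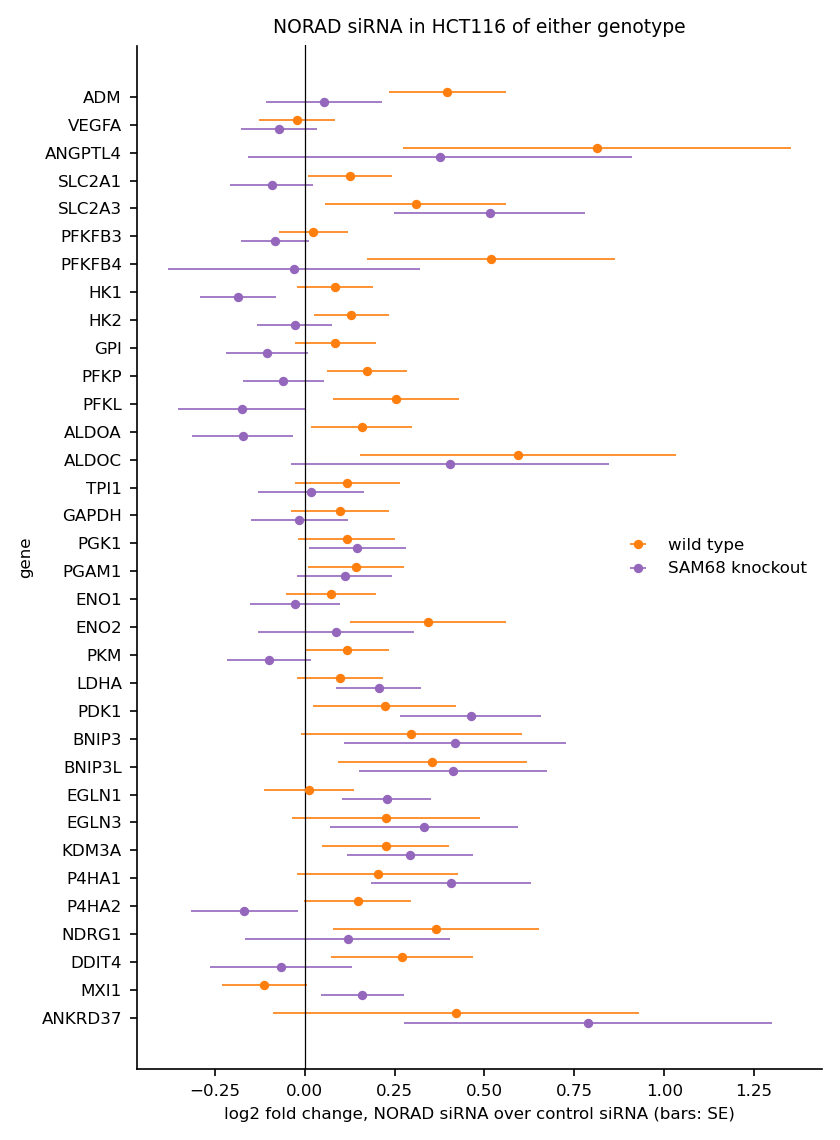
Log2 fold change of NORAD siRNA over control siRNA for 34 members in wild-type and SAM68 knockout HCT116, with bars of 1 SE from the edgeR fit. Orange wild-type points lie to the right of 0 for 32 of 34 genes, while purple knockout points fall on both sides and many bars cross 0.

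With SAM68 siRNA in U2OS no member passed the test, and neither did the targeted gene. Of 33 members 17 were positive, with a median of 0.00 against -0.01 for all genes, and the range ran from log2 -0.64 to 0.27. None was called by edgeR (each adjusted p = 1), 0 had an unadjusted p under 0.05 and DESeq2 called 0, where 0.00639% of all 15658 genes were called. In 7 members the groups did not overlap, 3 higher and 4 lower, near the 18.9% of all genes. ANKRD37 had the lowest fitted value, from 1.08 and 1.17 CPM in controls to 0.41 and 0.94 CPM (log2 -0.64 ± 0.45), at very low counts; it was log2 -0.16 without SAM68 siRNA library 1 and -1.40 without library 2. MXI1 was at 56.6 and 58.0 against 48.3 and 49.7 CPM (log2 0.23 ± 0.17) and HK2 at 54.4 and 55.8 against 51.0 and 42.6 (log2 0.24 ± 0.20). PFKP was at 54.1 and 55.5 against 63.7 and 62.9 CPM (log2 -0.21 ± 0.17), and PDK1 at 14.6 and 11.4 against 12.6 and 8.95 (log2 0.27 ± 0.23). With single libraries left out, PDK1 ran from log2 0.08 to 0.58, HK2 from 0.15 to 0.42 and PFKP from -0.23 to -0.10. The PDK1 groups overlapped and the other 4 did not. SLC2A1, which was higher in the HCT116 knockout, was at 87.3 and 114.5 against 92.3 and 105.3 CPM here (log2 0.03 ± 0.20).

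The SAM68 plasmid likewise gave no called member, nor was the targeted gene called. The plasmid carried mouse SAM68, so counts of the human gene may not give its level. Of 33 members 19 were positive, with a median of 0.02 against 0.01 for all genes and a range from log2 -0.41 to 0.23. No member was called by edgeR (each adjusted p = 1), 0 had an unadjusted p under 0.05 and DESeq2 called 0, where 0.00639% of all genes were called. Only 2 members had groups that did not overlap, both lower, against 18% of all genes. EGLN3, a HIF-induced prolyl hydroxylase, was at 2.74 and 3.21 CPM with the SAM68 plasmid and 3.83 and 4.10 CPM with the control plasmid (log2 -0.41 ± 0.26). NDRG1 was the other, at 104.5 and 99.6 against 107.1 and 106.4 CPM. Overlapping groups were seen for ENO2 (log2 0.20 ± 0.19), DDIT4 (log2 0.19 ± 0.22), ALDOC (log2 0.23 ± 0.31) and PFKL (log2 0.18 ± 0.26), which ran from log2 0.00 to 0.38, 0.08 to 0.31, -0.21 to 0.59 and -0.02 to 0.41 with single libraries left out. For the enzymes 11 of 15 were positive, with a median of 0.06, but the SAM68 plasmid libraries stood apart from each other, with 12 of 15 enzymes higher in number 1 by a median of 0.27.

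**Figure D5:**
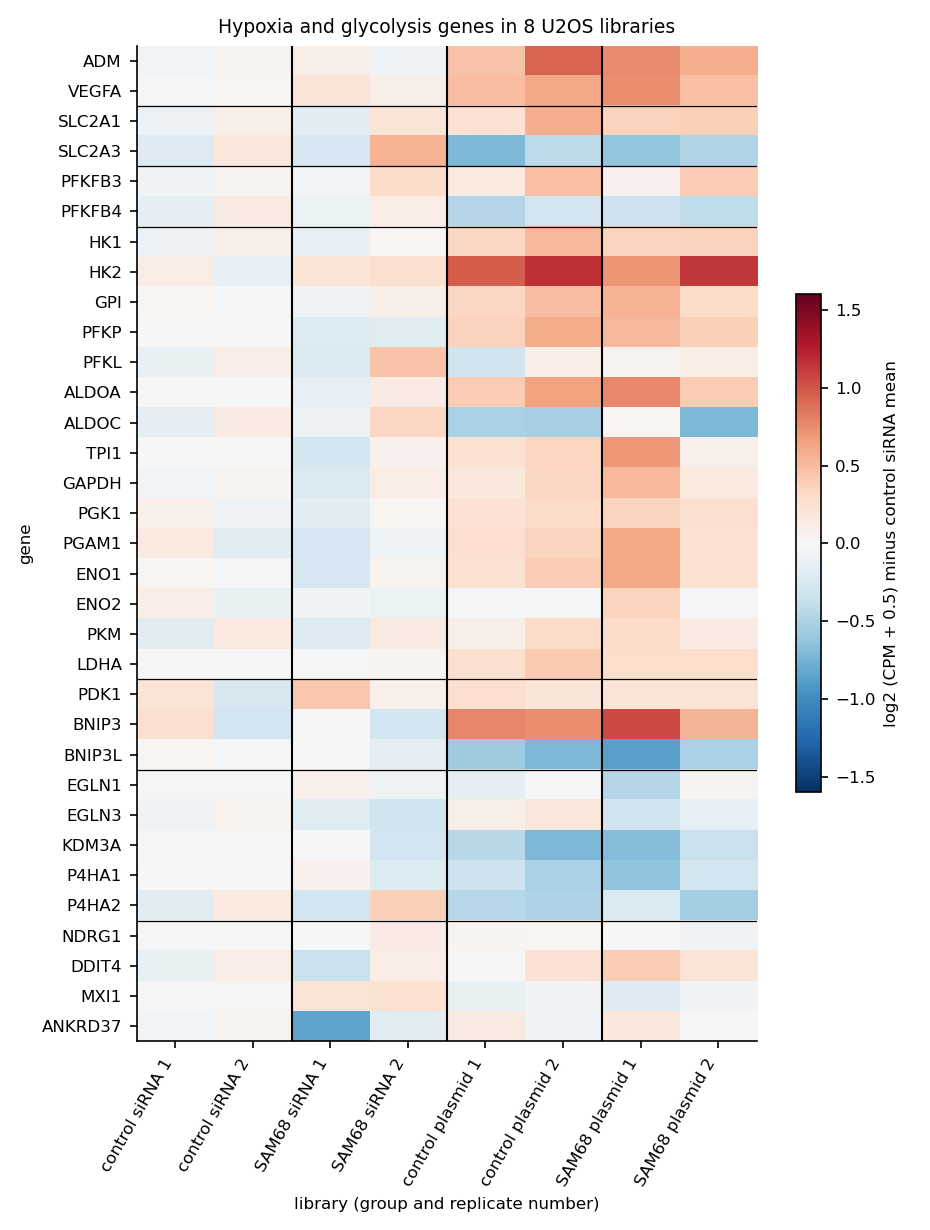
Heat map of the 33 members tested in U2OS (rows, grouped by role) in its 8 libraries (columns), as log2 (CPM + 0.5) minus the log2 value of the mean of the control siRNA libraries, red for higher. HK2 and BNIP3 are red, and BNIP3L and KDM3A blue, in plasmid libraries with or without SAM68, while the SAM68 siRNA columns are pale for most genes.

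A few members, chosen after their values were seen, stood at other levels in the siRNA than in the plasmid libraries of U2OS; this is a description with no test. HK2 was at 42.6 to 55.8 CPM in the 4 siRNA libraries and 76.8 to 106.2 CPM in the 4 plasmid libraries. BNIP3 was at 19.8 to 29.3 CPM with siRNA and 36.1 to 51.6 CPM with plasmid. BNIP3L went the other way, with 95.4 to 108.2 CPM against 58.1 to 74.0 CPM. The siRNA and plasmid libraries differ in cargo and in any handling that went with it, which cannot be told apart.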

How the data were processed

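Poly(A) RNA libraries were made with a strand-specific kit, per the labels' protocols. Per the file headers, the authors deposited RSEM gene estimates over RefSeq transcripts, 1 table per library. Expected counts, deposited by the authors without normalization, are estimated read counts; they were rounded to whole numbers for the tests. TPM values deposited by the authors, which are scaled by transcript length within each library, were used for levels across genes and lines. The effective length in bases, deposited by the authors, entered 1 alternative as an offset. The submitters' processing notes list STAR, RSEM and the build hg19. Tool versions and the strand setting were not given in the sources used here, so antisense or overlapping genes are uncertain. Rows without a symbol held 0.031% of counts.

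Each line was fitted with its 4 groups, and both lines jointly for their comparison: filterByExpr, TMM and edgeR's quasi-likelihood test (edgeR 4.0.16, limma 3.58.1, R 4.3.3) over 15658 genes in U2OS, 13764 in HCT116 and 16444 jointly, with Benjamini-Hochberg adjusted p below 0.05. Standard errors are the log2 fold change divided by the square root of F. The code was tested on simulated data. Replicates differed beyond sampling noise (chi-square per gene 7.83 to 60.17 for genes whose replicates sum to 20 counts or more), so all 16 libraries were kept. Alternatives were DESeq2 1.42.0, RLE factors, no filter, a GC content and length offset (GENCODE release 29 transcripts), the effective length offset, a replicate block, and single libraries left out. The members and lists were chosen with earlier results of these data known. Named members were each called member where 1 to 12 were called, the 6 largest called in each direction where more were, and otherwise the 5 smallest unadjusted p; paralogue pairs were compared by TPM. EGLN2 shares a joined row with other genes and was not analysed here.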

Additional observations from a re-analysis of the deposited data

How the results depend on the processing

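Fold changes of named members kept their direction under every alternative that used all libraries, and the members' direction was reversed only for ALDOC and PFKL with the SAM68 plasmid (-0.213 to 0.594, lowest without SAM68 plasmid library 1, and -0.022 to 0.411, lowest without control plasmid library 1) and for P4HA1 with NORAD siRNA in knockout cells (-0.086 to 0.765, lowest without knockout NORAD library 1). The number of genes called over all genes was small and unstable for SAM68 siRNA (1 gene; 7 with DESeq2, 27 without the filter), the SAM68 plasmid (1; 4 and 15), NORAD siRNA in wild-type cells (1; 5 and 33), NORAD siRNA in knockout cells (1; 9 and 61, and 2 with the GC content and length offset) and the difference of the NORAD effects (0; 2 and 30). For knockout against wild type under control siRNA it was 43, against 114 with DESeq2, 272 without the filter and 261 with the GC content and length offset, and members called went from 0 to 1, SLC2A1, in each of the last 2. Over both siRNAs it was 2424, against 3772 without the filter, with 2 members called, 4 with DESeq2 and 8 without the filter. The median of members between the cell lines was -0.69, against -0.646 with DESeq2 or RLE factors and -0.661 with either length offset. The cause of these shifts was not tested.

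The knockout libraries that differ were left out as alternatives added after seeing the data. Without both numbered 1, NORAD siRNA in knockout cells had 2 genes called, the difference of effects 3, and the knockout comparison over both siRNAs 1495 genes and 11 members with a median of -0.232. Without both numbered 2, NORAD siRNA in knockout cells had 0 genes called, and the knockout comparison 230 genes and 1 member.

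Replicate numbers are shared between groups, but no label says that they mark a shared culture or day, and each comparison has only 2 pairs. Deviations of same-numbered libraries correlated across genes at 0.569 for SAM68 siRNA, 0.477 and 0.322 for NORAD siRNA in wild-type and knockout cells, and -0.197 for the plasmids. With the replicate block, genes called were 0 for SAM68 siRNA, 0 for the plasmid, 3 and 7 for NORAD siRNA in wild-type and knockout cells, 2 for the difference, 254 for knockout under control siRNA with 1 member, and 5247 over both siRNAs with 10 members, 5 of them enzymes. With the replicate block and the GC content and length offset, they were 17 and 13 for NORAD siRNA in wild-type and knockout cells, and 3 for the difference. For knockout under control siRNA they were 847 with 3 members. Over both siRNAs this setting called 7 members, and its share of all genes is not given here. The members' median between the lines was -0.66 under this setting. The crossed pairing of the plasmid libraries, also added after seeing the data, called 2 genes.

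Leaving out single libraries, a lone library being assumed to vary like the other groups, gave 0 to 5 genes called for SAM68 siRNA with a members' median of -0.119 to 0.175, 0 to 4 for the plasmid, 1 to 2 and 0 to 4 for NORAD siRNA in wild-type and knockout cells, 0 to 1 for the difference, and 20 to 41 for knockout under control siRNA. Over both siRNAs it gave 201 to 3144 genes and 0 to 5 members, and between the lines a members' median of -0.738 to -0.606. Depth limits CA9, ANGPTL4, ADM and ANKRD37 in U2OS, which had few counts there.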
